A study of Mus musculus with 2 samples.

Results

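The genes described here encode the proteins of the cytosolic ribosome in mouse testis. Feature symbols beginning with Rpl or Rps followed by a number, together with Rplp0, Rplp1, Rplp2 and Rpsa, were taken, and ribosomal S6 kinases and pseudogenes were left out. This gave 84 of 31053 listed genes: 31 small subunit proteins, 43 large subunit proteins, 3 proteins of the stalk and 7 paralogs, which are second gene copies of a ribosomal protein. All 84 had at least 1 count. Rps4l, a further paralog, was not analysed here.

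Each ribosome carries most of these proteins in a single copy, so their genes are usually transcribed together and strongly in growing cells. The small subunit reads the mRNA, the large subunit joins amino acids, and the stalk recruits the factors that drive each step. Their mRNAs commonly start with a run of pyrimidines, the TOP motif, through which the mTOR pathway controls their translation. The testis is known for ribosomal protein paralogs on autosomes whose parent genes lie on the X chromosome, which is silenced in meiosis. Rpl10l and Rpl39l are the best known of these, and mice that lack either have defects in sperm formation.

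The study asked how the RNA-binding protein IGF2BP1 bears on sperm formation with age. Testes of mice aged 8 months were measured by droplet single-cell RNA sequencing (10x Genomics), with 1 library from a conditional Igf2bp1 knockout (KO) and 1 library from wild type (WT). The labels give neither the Cre line nor the deleted exons, and do not say without doubt how many animals stand behind a library. Each genotype is therefore 1 sample with no replicate, no test between genotypes is possible, and the intervals given cover counting error only.

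Counts are of unique molecular identifiers (UMIs), each marking 1 captured mRNA molecule, and levels are counts per 1e6 UMIs of the cell class (CPM). Since a molecule is counted once at its 3′ end, CPM was not divided by gene length. The KO library held 98033324 UMIs in 17968 barcodes and the WT library 121257944 UMIs in 17362 barcodes, and 106 barcodes occurred in both. After filtering, 17703 KO and 17002 WT barcodes were kept, and doublets were left in. Barcodes were clustered without the ribosomal protein genes, and clusters took names from marker lists, so spermatogonia stands for spermatogonia-like cells and so on. Of the kept barcodes, 8047 in KO and 10964 in WT had few UMIs and no marker lead, and are called empty-like. Another 5743 in KO and 1115 in WT were left unnamed, among them 1 cluster of 3504 KO and 20 WT barcodes. Leydig markers led there by a mean log2 of only 0.37, against 0.30 for the next class. Of the Leydig markers, 0 reached a 2-fold lead.

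Both libraries held enough cells for comparison in 6 classes. These were spermatogonia (64 KO and 93 WT cells), early spermatocytes (67 and 121), late spermatocytes (363 and 1184), round spermatids (453 and 1057), elongating spermatids (831 and 1695) and Sertoli cells (1010 and 657). Of each class's own markers, none was at 0 in either library except 1 of 17 spermatogonial markers in KO. Transcripts of other classes were also counted in each class, and the elongating spermatid markers summed to 18530 CPM in KO and 20100 CPM in WT spermatogonia. In the class of Sertoli cells, free RNA at the level of the lowest decile of barcodes would make up 49.5% of KO and 52.7% of WT UMIs. Igf2bp1 itself had 15 UMIs (26.7 CPM) in KO and 57 UMIs (67.6 CPM) in WT spermatogonia, and 196 and 344 UMIs over the kept barcodes. Because the deleted part is not given, these 3′ counts are no full check of the labels.

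Sequences before the annotated start were read from RefSeq (GRCm38.p6), which matched 64 of the 84 genes. A run of 8 or more pyrimidines (C or T) on the sense strand within 50 bases of the start was found for 53 of the 64 genes (82.8%), against 39.3% of the 27025 genes with such a window. The ETS motif CCGGAAG, searched on both strands over the 250 bases before and 50 bases after the start, was found for 26 (40.6%), against 9.93%. The YY1 motif GCCATNTT was found for 13 (20.3%, against 6.96%), the GC box GGGCGG for 40 (62.5%, against 38.2%), and TATAAA for 7 (10.9%, against 15.7%). Each motif was searched on its own, so matches of different motifs may overlap, as a pyrimidine run can with CTTCCGG, the reverse strand of the ETS motif. GCCATNTT, GGGCGG and TATAAA were also searched on both strands, and a match is a description, not a site.

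The windows of the X-linked genes and of the paralogs that stand apart in the results are shown from 100 bases before to 30 bases after the annotated start, 5′ to 3′. Capitals mark CCGGAAG on either strand and pyrimidine runs of 8 or more on the sense strand.
Rpl10l: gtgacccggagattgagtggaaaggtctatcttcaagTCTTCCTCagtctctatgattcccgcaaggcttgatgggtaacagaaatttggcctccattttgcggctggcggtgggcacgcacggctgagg
Rpl10: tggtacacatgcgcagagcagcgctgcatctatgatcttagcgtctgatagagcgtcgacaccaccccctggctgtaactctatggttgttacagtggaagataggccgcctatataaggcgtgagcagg
Rpl39l: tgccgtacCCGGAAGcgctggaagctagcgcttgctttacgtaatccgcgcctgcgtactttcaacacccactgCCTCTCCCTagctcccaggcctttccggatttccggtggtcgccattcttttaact
Rpl39: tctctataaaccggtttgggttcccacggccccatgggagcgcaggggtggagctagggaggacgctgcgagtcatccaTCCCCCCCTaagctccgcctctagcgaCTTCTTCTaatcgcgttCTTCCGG
Rpl36al: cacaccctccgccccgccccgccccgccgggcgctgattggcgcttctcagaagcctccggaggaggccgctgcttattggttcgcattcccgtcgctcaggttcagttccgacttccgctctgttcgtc
Rpl36a: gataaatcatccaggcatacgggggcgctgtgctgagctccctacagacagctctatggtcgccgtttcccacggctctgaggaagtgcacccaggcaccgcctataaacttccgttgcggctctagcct
Rps4x: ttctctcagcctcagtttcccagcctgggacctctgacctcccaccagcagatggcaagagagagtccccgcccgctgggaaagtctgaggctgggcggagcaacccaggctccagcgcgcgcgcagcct
Rpl22l1: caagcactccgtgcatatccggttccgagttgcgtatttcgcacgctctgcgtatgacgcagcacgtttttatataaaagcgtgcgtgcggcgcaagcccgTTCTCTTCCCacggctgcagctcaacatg
The Rpl10l window lies at chr12:66284372-66284501 on the minus strand and that of Rpl10 at chrX:74270716-74270845 on the plus strand. Rpl39l lies at chr16:10170128-10170257 (plus) and Rpl39 at chrX:37085193-37085322 (minus). Rpl36al lies at chr12:69184038-69184167 (minus), Rpl36a at chrX:134585554-134585683 (plus), Rps4x at chrX:102189362-102189491 (minus) and Rpl22l1 at chr3:28805408-28805537 (plus). In the Rpl22l1 window the pyrimidine run covers positions 1 to 10 counted from the start, and a TATAAA match begins 28 bases before it. The windows of Rpl10, Rpl36al, Rpl36a and Rps4x hold no capital letters.

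The ribosomal protein genes took the largest share of germ cell transcripts in spermatogonia and a smaller one at each later class. They made up 13.7% of UMIs in KO and 14.3% in WT spermatogonia, 8.92% in KO and 9.90% in WT early spermatocytes, and 7.05% in KO and 6.63% in WT late spermatocytes. Their share was 5.99% in KO and 5.64% in WT round spermatids, and 4.11% in KO and 4.00% in WT elongating spermatids. Both libraries gave the same order of the 5 classes taken whole, but sub-clusters overlapped. One of late spermatocytes held 8.57% in KO (52 cells) and 8.00% in WT (149 cells). Another, of early spermatocytes, held 7.11% in KO (29 cells) and 8.51% in WT (47 cells). The order of whole classes also held for the small subunit genes. These fell to 1.69% of UMIs in KO and 1.64% in WT elongating spermatids, against 6.25% and 6.36% in spermatogonia. Large subunit genes stood at 2.17% in KO and 2.13% in WT elongating spermatids, against 6.53% and 6.96% in spermatogonia. Shares and CPM are relative to all UMIs of a class, so abundant transcripts of other genes lower them. The 14 elongating spermatid markers summed to 315900 CPM in KO and 329900 CPM in WT elongating spermatids. In round spermatids they summed to 14740 CPM in KO and 16100 CPM in WT. Their part in the lower share of elongating spermatids was not tested.

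**Figure D1:**
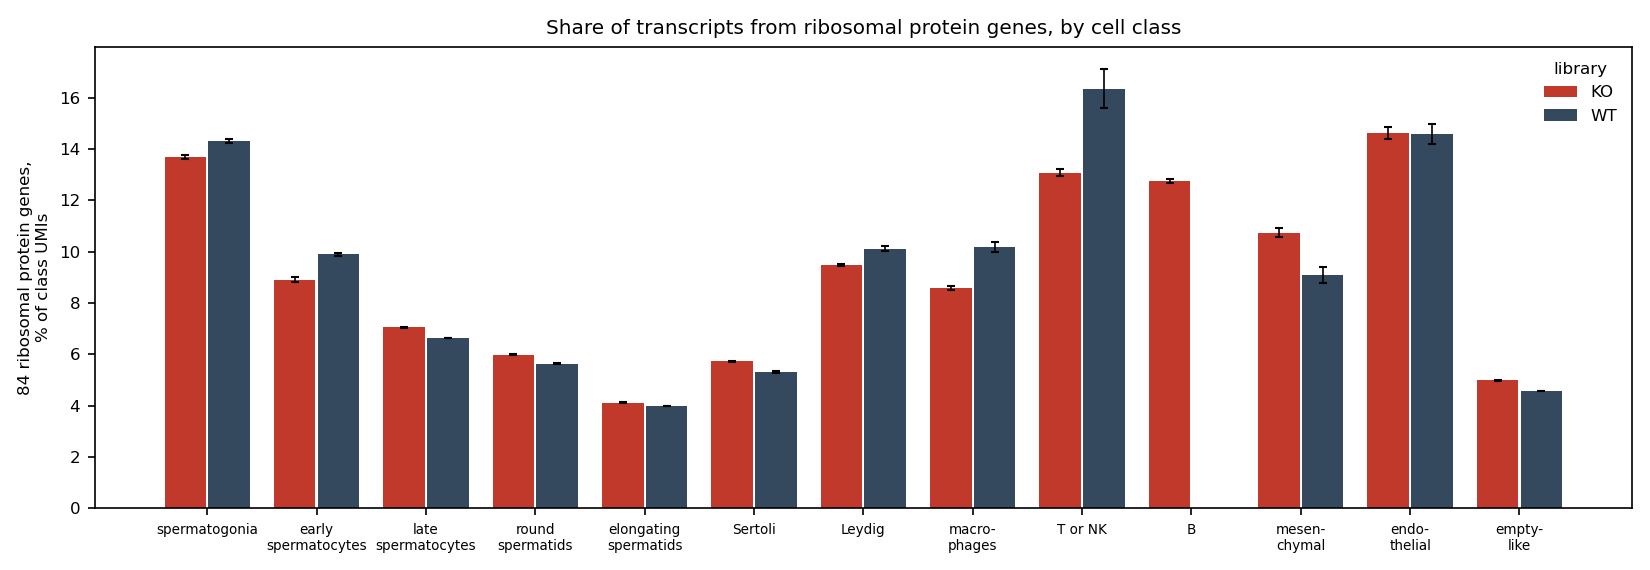
Share of UMIs from the 84 ribosomal protein genes (%, from 0) in each cell class, KO left of WT, with exact 95% binomial intervals. The share steps down from 13.7% (KO) and 14.3% (WT) in spermatogonia to 4.11% and 4.00% in elongating spermatids.

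Among somatic classes the share was 5.72% in KO and 5.30% in WT Sertoli cells, 9.47% in KO and 10.1% in WT Leydig cells, and 14.6% in both KO and WT endothelial cells (29 and 8 cells). Among lymphocytes it was 13.1% in KO T or NK lymphocytes (113 cells) and 12.8% in KO B lymphocytes (325 cells). The B lymphocyte value rested on small sub-clusters of 45 and 32 cells at 18.6% and 18.01%, while those of 159 and 89 cells held 9.37% and 10.5%, and the median over cells was 9.79%. WT had 3 T or NK lymphocytes, at 16.4%, and no cell of the B lymphocyte class. Empty-like barcodes held 4.99% in KO and 4.57% in WT, near the shares of elongating spermatids and Sertoli cells. Free RNA at the level of the lowest decile would make up 9.13% of KO and 5.81% of WT elongating spermatid UMIs. With it subtracted, the share was 4.03% in KO and 3.96% in WT elongating spermatids, and 6.44% and 6.10% in Sertoli cells.

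Within a class, single cells varied more than the libraries did. The middle 80% of elongating spermatids held 3.77% to 4.58% in KO and 3.66% to 4.46% in WT, and of spermatogonia 9.41% to 16.2% in KO and 9.93% to 18.1% in WT. After thinning each cell to 1500 UMIs, the median number of different ribosomal protein genes seen per cell was 66 in KO and 67 in WT spermatogonia, and 33 in KO and 32 in WT elongating spermatids. Without thinning it was 80 in both spermatogonia classes, and 66 in KO and 64 in WT elongating spermatids. No KO and 2 WT spermatogonia, and no KO and 1 WT elongating spermatid, were too shallow to thin.

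Most of the genes fell along the germ line, but by very different amounts. Of the 83 genes with at least 20 UMIs, 75 in KO and 70 in WT were highest in spermatogonia, and 47 in KO and 48 in WT fell at each of the 4 steps. From spermatogonia to elongating spermatids the median log2 difference in CPM was -2.08 in KO and -2.34 in WT. The median was -2.09 in KO and -2.45 in WT for small subunit genes, -2.08 and -2.23 for large subunit genes, and -2.31 and -2.34 for the stalk.

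A step counted as a change when it was at least 1.5-fold with a 95% counting interval that left out 1. From spermatogonia to early spermatocytes 38 ribosomal protein genes fell and none rose in KO, where 10.9% of 7101 genes fell and 14% rose. In WT 31 fell and 1 (Rpl39) rose, where 13.7% of 8962 genes fell and 17.6% rose. The median log2 difference at this step was -0.57 in KO and -0.54 in WT for these genes, against 0.10 and 0.13 for all genes. From early to late spermatocytes 29 fell and 5 rose in KO (34.5% and 18.1% of all genes), and 48 fell and 3 rose in WT (38.8% and 18.8%). The medians there were -0.34 in KO and -0.75 in WT, against -0.36 and -0.43 for all genes. From late spermatocytes to round spermatids 17 fell and none rose in KO (36.4% and 27%), and 15 fell and 1 rose in WT (38.5% and 28.7%). From round to elongating spermatids 42 fell and 1 rose in KO (69.9% and 13.1%), and 44 fell and 1 rose in WT (72.9% and 12.5%). At this last step the median was -0.67 in KO and -0.73 in WT, against -1.68 and -1.89 for all genes.

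**Figure D2:**
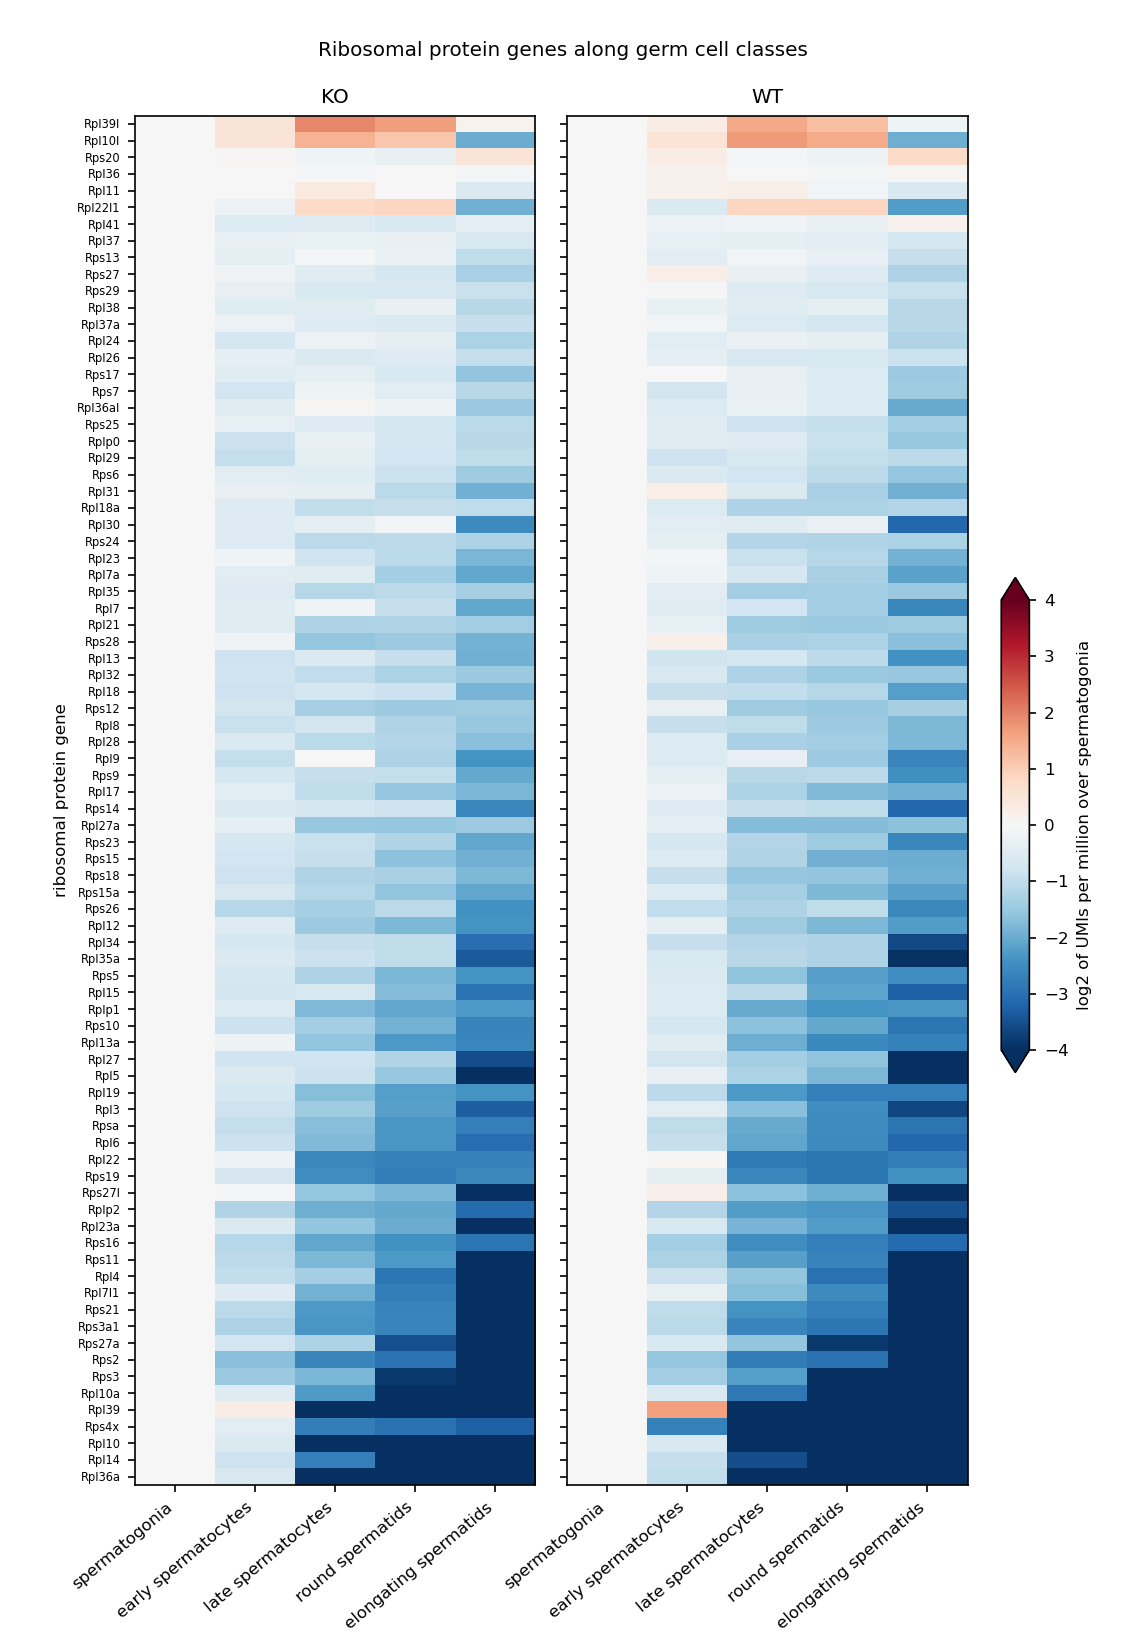
Log2 of CPM over that of spermatogonia for ribosomal protein genes with at least 20 UMIs (rows, ordered by their mean) in 5 germ cell classes, KO left and WT right; blue is lower and red higher than in spermatogonia, and colours end at 4 either way. Rpl39l, Rpl10l and Rpl22l1 are red in late spermatocytes and round spermatids, and the lowest rows hold the 4 X-linked genes with Rpl14 and Rpl10a.

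The 10 genes with most UMIs were Rps29, Rpl41, Rps20, Rpl13, Rpl36, Rpl37, Rps24, Rpl37a, Rplp0 and Rpl32. Rps29, a zinc-binding protein of the small subunit, had the most, with 247241 UMIs in KO and 262247 in WT over the kept barcodes. It stood at 4061 CPM in KO and 3497 CPM in WT spermatogonia, and at 2188 CPM and 1882 CPM in elongating spermatids. Rps20, a small subunit protein of the head domain, went against the general fall. It had 2185 CPM in KO and 1942 CPM in WT spermatogonia, 1788 CPM and 1695 CPM in round spermatids, and 3123 CPM and 3335 CPM in elongating spermatids. It was the single gene that passed the limit upward at the last step, in both libraries.

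Rpl36, of the large subunit, was almost level, with 1810 CPM in KO and 1720 CPM in WT spermatogonia, and 1709 CPM and 1789 CPM in elongating spermatids. Rpl41, the smallest ribosomal protein, had 3502 CPM in KO and 2442 CPM in WT spermatogonia, and 2671 CPM and 2738 CPM in elongating spermatids. The direction of Rpl41 along the germ line therefore differed between the libraries. Rpl13, also of the large subunit, did fall, to 1093 CPM in KO and 786.8 CPM in WT elongating spermatids, against 4135 CPM and 4172 CPM in spermatogonia. Of the remaining genes in this group, Rpl32 had 3425 CPM in KO and 3816 CPM in WT spermatogonia, and 1229 CPM and 1327 CPM in elongating spermatids. Rps24 had 3198 CPM in KO and 3581 CPM in WT spermatogonia, and 1319 CPM and 1479 CPM in elongating spermatids. Rpl37 and Rpl37a, a pair of zinc-binding large subunit proteins, were at 1442 CPM and 1298 CPM in KO and 1497 CPM and 1118 CPM in WT elongating spermatids.

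The 3 stalk genes did not fall alike. Rplp0 encodes the base of the stalk that anchors pairs of RPLP1 and RPLP2. Rplp0 had 2513 CPM in KO and 2570 CPM in WT spermatogonia, 2037 CPM and 1794 CPM in late spermatocytes, and 1158 CPM and 906.6 CPM in elongating spermatids. Rplp1 had 2132 CPM in KO and 2094 CPM in WT spermatogonia, 629.97 CPM and 520.6 CPM in late spermatocytes, and 429.9 CPM and 412.8 CPM in elongating spermatids. Rplp2 had 2675 CPM in KO and 3199 CPM in WT spermatogonia, 684.6 CPM and 684.3 CPM in late spermatocytes, and 317.5 CPM and 283.9 CPM in elongating spermatids. In both libraries Rplp1 and Rplp2 were near the level of Rplp0 in spermatogonia and well under it from late spermatocytes on.

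The 5 genes whose course over the germ classes was least like that of the median gene were Rpl36a, Rpl39, Rpl14, Rpl10 and Rps4x, with root mean square log2 differences of 2.85, 2.30, 1.97, 1.84 and 1.68 over 10 points (5 classes in 2 libraries). All but Rpl14 are X-linked, and they are the 4 X-linked genes of the set. Rpl14, an autosomal large subunit gene, had 1610 CPM in KO and 2032 CPM in WT spermatogonia, 242.7 CPM and 172.7 CPM in late spermatocytes, 44.6 CPM and 26.4 CPM in round spermatids, and 19.8 CPM and 10.8 CPM in elongating spermatids. Rpl10a, another autosomal large subunit gene, had 930.7 CPM in KO and 998.8 CPM in WT spermatogonia, and 40.3 CPM and 26.2 CPM in round spermatids. Both lay in round spermatids under their level in empty-like barcodes, where Rpl14 had 88.0 CPM in KO and 62.9 CPM in WT, and Rpl10a had 81.7 CPM in KO and 57.8 CPM in WT.

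The paralogs followed another course than their parent genes. The X-linked parent genes Rpl10, Rpl39 and Rpl36a fell steeply between early and late spermatocytes, while their autosomal paralogs had higher CPM in late than in early spermatocytes. Rpl10l, the testis copy of Rpl10, had 46.3 CPM in KO and 42.7 CPM in WT spermatogonia, 121.8 CPM and 139.7 CPM in late spermatocytes, 100.8 CPM and 118.6 CPM in round spermatids, and 11.8 CPM and 10.97 CPM in elongating spermatids. Rpl10 had 229.6 CPM in KO and 251.5 CPM in WT spermatogonia, 153.7 CPM and 163.8 CPM in early spermatocytes, and 12.8 CPM and 2.77 CPM in late spermatocytes. The share of Rpl10l in the pair was 16.8% in KO (exact 95% interval 11.3% to 23.6%) and 14.5% in WT spermatogonia (10.4% to 19.5%), and 90.5% in KO and 98.1% in WT late spermatocytes.

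Rpl39l, the copy of the small tunnel protein RPL39, was the most abundant paralog. It had 405.7 CPM in KO and 577.7 CPM in WT spermatogonia, 574.1 CPM and 716.2 CPM in early spermatocytes, 1528 CPM and 1637 CPM in late spermatocytes, and 446.7 CPM and 514.5 CPM in elongating spermatids. Rpl39 had 423.5 CPM in KO and 211.1 CPM in WT spermatogonia, 524.8 CPM and 655.1 CPM in early spermatocytes, and 24.5 CPM and 3.78 CPM in late spermatocytes. Rpl39l made up 48.9% of the pair in KO and 73.2% in WT spermatogonia, 52.2% in both libraries' early spermatocytes, and 98.4% in KO and 99.8% in WT late spermatocytes. In percentage points of this share, the libraries stood furthest apart in spermatogonia among the germ cell classes. The level of Rpl39 itself differed more by ratio in late, round and elongating spermatogenic cells (log2 KO over WT 2.70, 2.69 and 3.098) than in spermatogonia (1.004).

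Rpl36al moved far less than its parent up to round spermatids, with 245.6 CPM in KO and 346.4 CPM in WT spermatogonia, 176.9 CPM and 236.6 CPM in early spermatocytes, 252.5 CPM and 287.5 CPM in late spermatocytes, and 213.0 CPM and 236.3 CPM in round spermatids. Its parent Rpl36a had 638.8 CPM in KO and 683.2 CPM in WT spermatogonia, and 6.32 CPM and 1.28 CPM in late spermatocytes. Rpl36al made up 27.8% of the pair in KO and 33.6% in WT spermatogonia, and 97.6% and 99.6% in late spermatocytes.

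Rpl22l1 and Rpl22 traded places although both are autosomal. RPL22 is an RNA-binding protein of the large subunit that is known to repress its paralog in other tissues. Rpl22l1 had 314.97 CPM in KO and 334.5 CPM in WT spermatogonia, 533.8 CPM and 609.3 CPM in late spermatocytes, 572.1 CPM and 613.3 CPM in round spermatids, and 83.7 CPM and 70.6 CPM in elongating spermatids. Rpl22 had 1052 CPM in KO and 1242 CPM in WT spermatogonia, 177.8 CPM and 173.4 CPM in late spermatocytes, and 160.9 CPM and 181.0 CPM in elongating spermatids. Rpl22l1 made up 23.1% of the pair in KO and 21.2% in WT spermatogonia, 77.8% and 79.0% in round spermatids, and 34.2% and 28.1% in elongating spermatids, where Rpl22 led again.

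The other paralogs were the minor partner at each germ class. Rps27l, a target of p53 in other tissues, made up 29.2% of its pair with Rps27 in KO and 34.5% in WT spermatogonia, and 3.35% and 2.85% in elongating spermatids. Rpl7l1, whose protein is known to act in ribosome assembly, made up 15.1% of its pair with Rpl7 in KO and 10.4% in WT spermatogonia, and 1.12% and 1.25% in elongating spermatids. Rpl3l, which is known from heart and skeletal muscle, made up 0.33% of its pair with Rpl3 in KO and 1.14% in WT spermatogonia, with 1.78 CPM and 7.12 CPM, and did not pass the minimum of 20 UMIs.

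**Figure D3:**
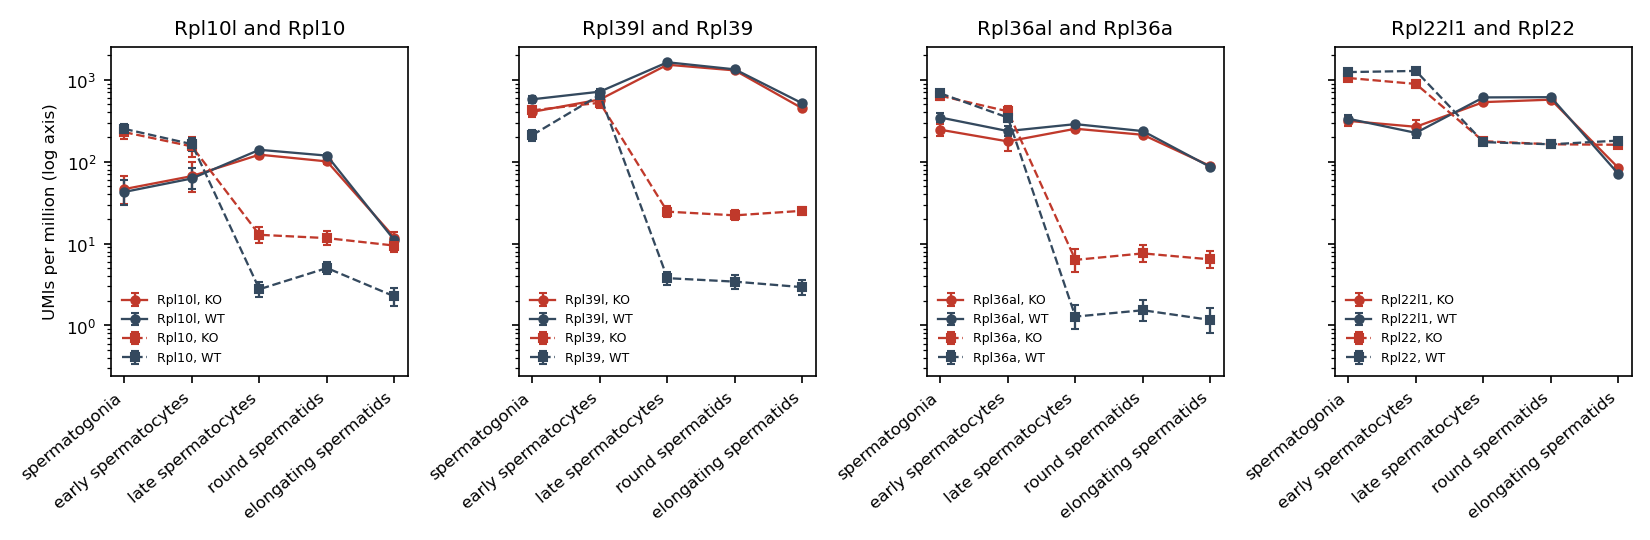
CPM (log axis) of 4 paralogs (circles, solid lines) and their parent genes (squares, dashed lines) in 5 germ cell classes, KO in red and WT in dark blue, with exact 95% Poisson intervals. Rpl10, Rpl39 and Rpl36a drop between early and late spermatocytes, to 12.8, 24.5 and 6.32 CPM in KO and 2.77, 3.78 and 1.28 CPM in WT, while the paralogs do not.

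The fourth X-linked gene, Rps4x of the small subunit, has no paralog among the genes counted here. It had 108.5 CPM in KO and 117.4 CPM in WT spermatogonia, 81.2 CPM and 18.2 CPM in early spermatocytes, and 15.96 CPM and 1.59 CPM in late spermatocytes. In Sertoli cells it had 123.9 CPM in KO and 93.5 CPM in WT, near the level of spermatogonia, and in Leydig cells 1181 CPM in KO and 1248 CPM in WT. Rpl39, Rpl10 and Rpl36a were also high in Leydig cells, at 1640 CPM, 960.8 CPM and 519.8 CPM in KO and 1719 CPM, 1186 CPM and 645.6 CPM in WT. Together the 4 X-linked genes had 4301 CPM in KO and 4799 CPM in WT Leydig cells, and 5658 CPM in KO B lymphocytes.

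Counts of some of these genes are uncertain because the 3′ sequence recurs in pseudogenes and other genes. Of the 60-base words in the last 400 bases of its transcripts, Rpl36a shared 100% with transcripts of other genes, Rpl10 shared 90.7%, Rps4x 57.5% and Rpl39 20.8%. Rpl10l and Rpl39l shared none and Rpl36al shared 75.8%. The median over the 84 genes was 43.1%, 35 genes shared more than 50%, and no gene of the set shared a word with another gene of the set.

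Between genotypes, the summed share of the ribosomal protein genes differed little. The log2 ratio of KO over WT was -0.07 in spermatogonia (95% counting interval -0.08 to -0.05), -0.15 in early spermatocytes (-0.17 to -0.13) and 0.09 in late spermatocytes (0.08 to 0.09). It was 0.09 in round spermatids (0.08 to 0.09), 0.04 in elongating spermatids (0.04 to 0.05) and 0.11 in Sertoli cells (0.10 to 0.12). With TMM scaling the ratio was -0.16 in elongating spermatids and near 0 in Sertoli cells, so its direction in these classes rests on the scaling. In the classes with a negative ratio, free RNA at the level of the lowest decile differed between libraries. It would make up 14.8% of KO and 10.7% of WT UMIs in spermatogonia, and 25.3% and 15.2% in early spermatocytes. With it subtracted the shares were 15.2% in KO and 15.5% in WT spermatogonia, and 10.2% and 10.9% in early spermatocytes. None of the 6 ratios came near 1.5-fold, and with 1 library per genotype the spread between animals is unknown. Of the classes with fewer WT cells, Leydig cells held 9.47% in KO (376 cells) and 10.1% in WT (44 cells), and macrophages 8.59% in KO (177 cells) and 10.2% in WT (39 cells). Macrophages fell into sub-clusters that the libraries filled unequally: the share was 10.9% in KO (69 cells) and 12.5% in WT (26 cells) in one, 7.38% in KO (45 cells) and 6.79% in WT (11 cells) in another, and 7.19% in a sub-cluster of 63 KO and 2 WT cells.

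Single genes were called when the ratio was at least 1.5-fold, its 95% counting interval left out 1 and both libraries together held at least 20 UMIs, and 83 genes were compared in each class. In spermatogonia 1 gene was called higher and 1 lower in KO, where 3.67% and 3.53% of 8508 genes were. In early spermatocytes 1 was higher and 3 were lower (5.03% and 6.14% of 7672 genes). In late spermatocytes 4 were higher and 0 lower (5.54% and 3.08% of 14338), and in round spermatids 6 and 0 (5.65% and 2.63% of 14702). In elongating spermatids 10 were higher and 0 lower (11.1% and 0.646% of 12536), and in Sertoli cells 1 and 1 (6.1% and 3.09% of 10656). As a share of the 83 genes the calls came to 2.41%, 4.82%, 4.82%, 7.23%, 12% and 2.41% in these 6 classes, near or under the shares of all genes called either way (7.19%, 11.2%, 8.61%, 8.27%, 11.8% and 9.19%). The number of called genes is therefore no result about ribosomal proteins as a set.

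The median log2 ratio of the 83 genes was -0.11 in spermatogonia, -0.15 in early spermatocytes, 0.09 in late spermatocytes, 0.08 in round spermatids, 0.10 in elongating spermatids and 0.09 in Sertoli cells. Over all genes compared, the medians were 0.00016, -0.04, 0.03, 0.02, 0.21 and 0.11. TMM scaling, which centres the bulk of genes, lowers the ratios by 0.20 in elongating spermatids and 0.11 in Sertoli cells, and turns the medians there to -0.11 and -0.02. The genes in which the ratio was below 1 numbered 61 in spermatogonia and 68 in early spermatocytes, against 16 in late spermatocytes, 18 in round spermatids, 30 in elongating spermatids and 21 in Sertoli cells. With TMM scaling these numbers were 62, 67, 27, 25, 53 and 43, so most of the 83 genes were then below 1 in elongating spermatids and Sertoli cells as well.

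**Figure D4:**
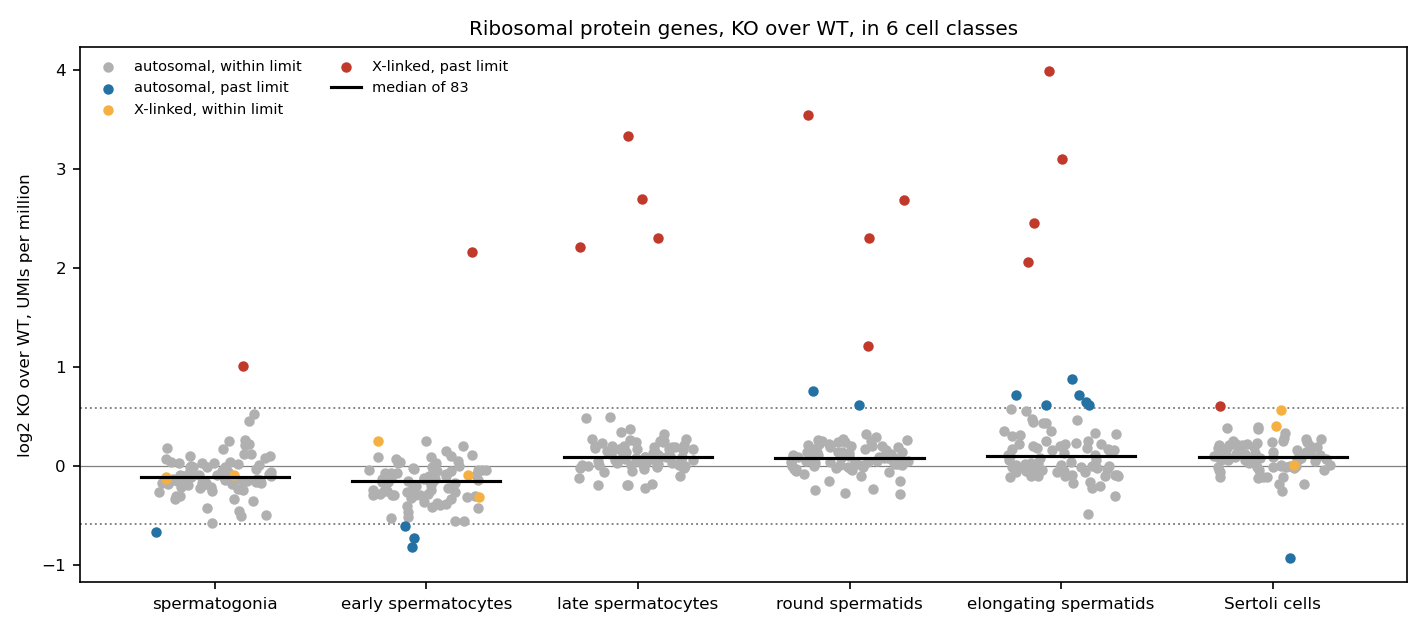
Log2 ratio of KO over WT CPM of 83 ribosomal protein genes (points) in 6 cell classes; black bars are medians, dotted lines mark 1.5-fold, and colours separate X-linked from autosomal genes and those past the limit from the rest. The 4 X-linked genes stand above the others in late spermatocytes (2.21 to 3.33), round spermatids (1.21 to 3.55) and elongating spermatids (2.06 to 3.99).

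In spermatogonia the called genes were Rpl39, at 423.5 CPM in KO and 211.1 CPM in WT (log2 ratio 1.004, 0.72 to 1.29), and Rpl27, a large subunit gene at 192.2 CPM in KO and 304.8 CPM in WT (-0.67, -1.004 to -0.34). Under equal weight of the sub-clusters Rpl27 had a ratio of -0.58 and was not called. Ranked by the interval bound nearest 0, the next on the high side were Rpl41 (log2 ratio 0.52), Rps28 (0.45), Rps27 (0.25) and Rps29 (0.22). On the low side they were Rpl39l (-0.51), Rpl35 (-0.46), Rpl19 (-0.42) and Rpl14 (-0.34). Marker genes of Leydig cells (10 of 10 seen in KO, 7 of 10 in WT) summed to 384.4 CPM in KO and 138.8 CPM in WT spermatogonia, and their part in the Rpl39 value was not tested.

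In early spermatocytes Rps4x was called higher, with 28 UMIs (81.2 CPM) in KO and 14 UMIs (18.2 CPM) in WT (log2 ratio 2.16, 1.18 to 3.20). Rpl31 was lower at 426.2 CPM in KO and 751.3 CPM in WT (-0.82, -1.09 to -0.55), as were Rpl27 (-0.73) and Rpl9 (-0.61), all of the large subunit. Rpl5, which carries 5S rRNA to the ribosome, Rpl22 and Rpl35 came next by that rank with -0.56, -0.53 and -0.52. On the high side were Rpl36a (0.25), Rpl41 (0.20), Rps16 (0.15) and Rps28 (0.11). Only 2 of the 83 genes, Rps4x among them, had an interval wholly above a ratio of 1 here. The counts of called genes depended on which cells formed the class. When ribosomal protein genes were allowed in the clustering, 1 gene was higher and 17 were lower, and with equal weight of the sub-clusters 1 was higher and 6 were lower, without Rpl27 (-0.54) and Rpl9 (-0.30). With the stricter barcode filter Rpl27 was also not called (-0.52), and Rpl36a turned to -0.14 with equal weight of the sub-clusters.

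In late spermatocytes the 4 called genes were exactly the X-linked ones, Rps4x, Rpl39, Rpl36a and Rpl10. Next by that rank came Rpl14, at 242.7 CPM in KO and 172.7 CPM in WT (log2 ratio 0.49). On the low side were Rpl35 (-0.22), Rpl10l (-0.20), Rpl22l1 (-0.19), Rpl36al (-0.19) and Rpl39l (-0.10), so 4 of these 5 were paralogs, each under 1.5-fold. In round spermatids Rpl14 (44.6 CPM in KO and 26.4 CPM in WT, 0.76) and Rpl10a (40.3 CPM and 26.2 CPM, 0.62) were called beside the X-linked genes, and neither was with equal weight of the sub-clusters (0.31 and 0.34), nor Rpl10a with free RNA subtracted (0.58). Rpl27 (-0.28), Rpl7a (-0.25), Rpl10l (-0.24), Rpl35 (-0.15) and Rpl36al (-0.15) were on the low side there.

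In elongating spermatids 6 autosomal genes were called beside the 4 X-linked ones. The libraries filled the 6 sub-clusters of this class unequally, with 307 KO and 152 WT cells and 223 KO and 89 WT cells in a pair of them, and 98 and 563, 34 and 369, 34 and 298, and 135 and 224 in the rest. Rpl14 had 19.8 CPM in KO and 10.8 CPM in WT (log2 ratio 0.88), Rpl10a 21.1 CPM and 12.8 CPM (0.72), and Rpl5 40.5 CPM and 24.7 CPM (0.72). Rps3a1 had 81.1 CPM in KO and 51.9 CPM in WT (0.64), Rps27a, made as a fusion with ubiquitin, 52.5 CPM and 34.2 CPM (0.62), and Rps21 144.7 CPM and 94.4 CPM (0.62). With equal weight of the sub-clusters none of the 6 was called. With free RNA subtracted 6 genes were higher and 1 was lower, without Rpl5 (0.53), Rps21 (0.55), Rps3a1 (0.52) and Rps27a (0.36), and with TMM scaling 5 genes were higher and 1, Rpl13a (-0.69), was lower. With ribosomal protein genes in the clustering 8 were higher, without Rpl10a (0.58) and Rps27a (0.56). On the low side by total UMIs were Rpl13a (-0.48), Rpl35 (-0.30), Rpl31 (-0.23), Rpl39l (-0.20) and Rps24 (-0.17).

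In Sertoli cells Rpl36a was higher at 60.3 CPM in KO and 39.7 CPM in WT (log2 ratio 0.60, 0.13 to 1.098), and Rpl13a, a large subunit protein also known from the interferon response, was lower at 31.6 CPM in KO and 60.4 CPM in WT (-0.93, -1.40 to -0.46). The Rpl36a call was lost when free RNA was subtracted (0.32), when ribosomal protein genes were allowed in the clustering (0.46) and with TMM scaling (0.49). Below the limit were Rpl10 (0.57), Rps28 (0.39), Rpsa (0.38), Rpl37a (0.37) and Rps9 (0.33) on the high side. On the low side were Rpl35 (-0.25), Rps19 (-0.18), Rps27l (-0.19) and Rpl23 (-0.04). In this class only 3 of the 83 genes, Rpl13a among them, had an interval wholly below a ratio of 1. Rpl35 had a ratio below 1 in each of the 6 classes, with a rank from the lowest of 5, 7, 1, 5, 2 and 2 among the 83. It was within 1.5-fold in each, though it passed the limit in early spermatocytes with ribosomal protein genes in the clustering (-0.75) and with equal weight of the sub-clusters (-0.60).

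The X-linked genes differed most between the libraries from late spermatocytes on. Rps4x had 106 UMIs (15.96 CPM) in KO and 47 UMIs (1.59 CPM) in WT late spermatocytes, a log2 ratio of 3.33 (2.82 to 3.86). In round spermatids it had 125 UMIs (13.8 CPM) in KO and 36 UMIs (1.18 CPM) in WT, and in elongating spermatids 133 UMIs (11.2 CPM) in KO and 20 UMIs (0.71 CPM) in WT. The ratios there were 3.55 (3.003 to 4.125) and 3.99 (3.30 to 4.74), and the intervals of KO and WT levels did not overlap in any of the 3 classes.

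Rpl39 had 24.5 CPM in KO and 3.78 CPM in WT late spermatocytes, 22.1 CPM and 3.43 CPM in round spermatids, and 25.2 CPM and 2.94 CPM in elongating spermatids, with log2 ratios of 2.70, 2.69 and 3.098. Rpl10 had 12.8 CPM in KO and 2.77 CPM in WT late spermatocytes, 11.7 CPM and 5.03 CPM in round spermatids, and 9.45 CPM and 2.26 CPM in elongating spermatids, with ratios of 2.21, 1.21 and 2.06. Rpl36a had 6.32 CPM in KO and 1.28 CPM in WT late spermatocytes, 7.59 CPM and 1.54 CPM in round spermatids, and 6.41 CPM and 1.17 CPM in elongating spermatids, with ratios of 2.30, 2.31 and 2.46. In these 3 classes each of the 4 genes was called under each of 6 alternatives. With free RNA subtracted the ratios ran from 1.12 (Rpl10, round spermatids) to 3.98 (Rps4x, elongating spermatids). Equal weight of the sub-clusters gave Rpl39 its lowest ratio in each class (2.15, 2.59 and 2.035), and Rpl36a in round spermatids (1.51). It gave Rps4x its highest ratio in late spermatocytes (3.44). A round spermatid sub-cluster of 142 KO and 54 WT cells had Rpl39 at 56.9 CPM in KO and 10.9 CPM in WT. Rps4x stood there at 38.7 CPM and 3.26 CPM.

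Transcripts of Leydig cells moved the same way in the 3 later germ cell classes. The 4 X-linked genes summed to 59.6 CPM in KO and 9.43 CPM in WT late spermatocytes, 55.1 CPM and 11.2 CPM in round spermatids, and 52.2 CPM and 7.08 CPM in elongating spermatids. In empty-like barcodes they summed to 150.1 CPM in KO and 31.0 CPM in WT, above the germ cell values of the same library. The Leydig cell marker list summed to 365.0 CPM in KO and 219.9 CPM in WT late spermatocytes, 288.2 CPM and 138.6 CPM in round spermatids, 142.6 CPM and 21.1 CPM in elongating spermatids, and 791.8 CPM and 195.9 CPM in empty-like barcodes. Of its 10 genes, 1 was at 0 in KO late spermatocytes and none in KO round spermatids, elongating spermatids or empty-like barcodes. In WT, 1 was at 0 in each of these 3 germ cell classes and none in empty-like barcodes. In early spermatocytes the list summed to 469.7 CPM in KO and 117.0 CPM in WT, and the 4 X-linked genes to 1171 CPM and 1183 CPM. In Sertoli cells the list summed to 671.9 CPM in KO and 127.4 CPM in WT, and the 4 X-linked genes to 571.3 CPM and 491.5 CPM.

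Insl3, a hormone made by Leydig cells, had 70.5 CPM in KO and 9.59 CPM in WT late spermatocytes, 74.3 CPM and 4.74 CPM in round spermatids, and 60.9 CPM and 5.06 CPM in elongating spermatids. B lymphocyte markers summed to 41.4 CPM in KO and 4.86 CPM in WT late spermatocytes, and macrophage markers to 96.4 CPM and 11.4 CPM. Of the summed UMIs of the 4 genes, Rpl39 gave 41.2% in KO late spermatocytes, 40.1% in KO round spermatids and 48.1% in KO elongating spermatids, against 38.1% in KO Leydig cells and 43.1% in KO empty-like barcodes. Rps4x gave 26.8%, 24.95%, 21.5%, 27.5% and 25.1% in the same order, Rpl10 21.5%, 21.2%, 18.1%, 22.3% and 17.4%, and Rpl36a 10.6%, 13.8%, 12.3%, 12.1% and 14.4%. In KO spermatogonia the make-up was another, with 45.6% from Rpl36a and 7.75% from Rps4x. The part that free RNA and other cell types play in the higher X-linked values of KO germ cells was not tested.

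**Figure D5:**
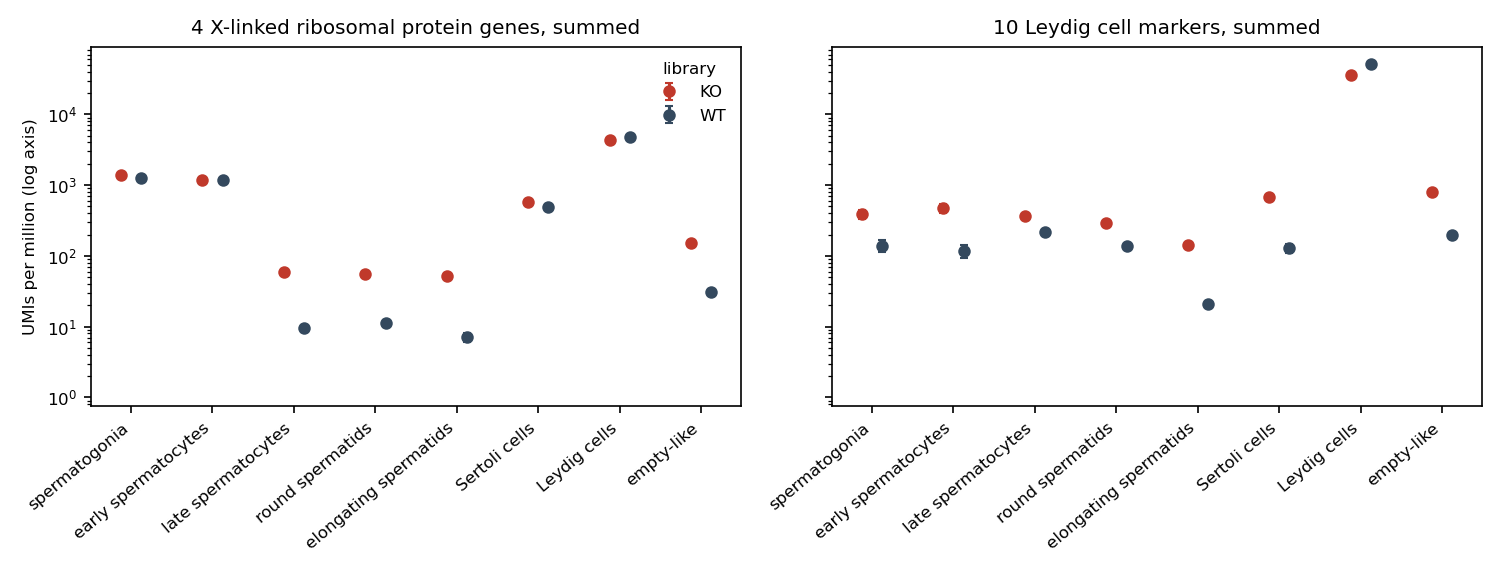
Summed CPM (log axis) of the 4 X-linked ribosomal protein genes (left) and of 10 Leydig cell markers (right) in germ cell classes, Sertoli cells, Leydig cells and empty-like barcodes, KO left of WT, with exact 95% Poisson intervals. KO lies above WT in the 3 later germ cell classes (59.6 and 9.43 CPM in late spermatocytes) and in empty-like barcodes (150.1 and 31.0 CPM), in both panels.

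Other X-linked genes did not all follow. Of 351 X-linked genes outside the set compared in late spermatocytes, 14.8% were higher and 10.5% lower in KO, against 5.29% and 2.89% of 13917 autosomal genes, and their median log2 ratio was -0.01. In round spermatids 8.49% of 436 such genes were higher and 2.06% lower, against 5.49% and 2.65% of 14175 autosomal genes. Their median there was 0.09, against 0.02 for autosomal genes. In elongating spermatids 25.9% of 305 such genes were higher and 0.328% lower, against 10.6% and 0.657% of 12178 autosomal genes. The medians were 0.42 and 0.20. The summed share of UMIs of these other X-linked genes was 0.231% in KO and 0.215% in WT late spermatocytes. In elongating spermatids it was 1.11% in KO and 1.02% in WT.

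Genes that work with the ribosomal proteins were called at different rates by class. Of 50 ribosome biogenesis genes, 49 were compared in spermatogonia, with 2 higher (Surf6 and Rrn3) and 2 lower (Utp3 and Utp4) in KO (4.08% each way, against 3.67% and 3.53% of all genes) and a median log2 ratio of -0.18. In late spermatocytes 1 of 47 (Surf6) was higher (2.13%, against 5.54%), with a median near 0. In elongating spermatids 7 of 41 were higher (17.1%, against 11.1%), among them Ncl, which encodes nucleolin, and Eif6, a factor that holds the subunits apart. The median there was 0.28, against 0.21 for all genes. Of 11 other ribosome and elongation factor genes, 10 were compared in each class. Rack1, a scaffold on the small subunit, was higher in KO round and elongating spermatids.

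Of 16 genes that control translation of ribosomal protein mRNAs, 13 or 14 were compared in a class and at most 1 was called in each direction, such as Eif4ebp1, an mTOR target, higher in KO late spermatocytes and Sertoli cells. Ribosomal proteins of the mitochondrion, which form a separate ribosome, had medians of -0.12, -0.18, 0.09, 0.09, 0.27 and 0.01 from spermatogonia to Sertoli cells, beside -0.11, -0.15, 0.09, 0.08, 0.10 and 0.09 for the cytosolic set. Of 77 mitochondrial genes compared in early spermatocytes 1 was higher and 13 were lower (1.3% and 16.9%, against 5.03% and 6.14% of all genes). Of 75 in elongating spermatids 9 were higher and 0 lower (12% higher, against 11.1%). Of 46 proteasome subunits compared in spermatogonia 0 were higher and 8 lower in KO (17.4% lower, against 3.53% of all genes), with a median of -0.19. Of 45 in elongating spermatids 12 were higher and 0 lower (26.7% higher, against 11.1%), with a median of 0.39.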

How the data were processed

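Testis cells of 1 KO and 1 WT library were measured by 10x Genomics sequencing. The files the authors deposited hold UMI counts that were not normalized, 1 value per barcode and gene. Cell Ranger 2.2.0, STAR and build mm10 are named in the submitters' processing notes, whereas the file headers carry software version 3.1.0. Which barcodes count as cells was decided before deposit, by a rule not given in these sources.

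A barcode was kept if it held 500 or more UMIs, 250 or more genes and a mitochondrial share up to 20%. Counts were scaled to 10000, log transformed, reduced to 2000 variable genes (without the ribosomal protein genes) and 30 components, and clustered on 15 neighbours (scanpy 1.11.5, leidenalg 0.10.2, resolution 1). Small mixed clusters and germ cell clusters were split again (1000 genes, 15 components, resolution 0.5). Names came from marker lists of 17 cell classes. Numeric thresholds used in naming were chosen with the data in view. No doublet caller was run.

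UMIs were summed per class and library. Levels carry exact Poisson, shares exact Clopper-Pearson and ratios exact conditional binomial intervals at 95% (scipy 1.17.1), which cover counting error only. The ratio step was tested on simulated Poisson counts drawn from the pooled means of both libraries, with known changes put in. These counts hold no spread between animals, so the test cannot show how far the calls would hold in other animals. Only classes with at least 50 cells in each library were compared. The genes and lists were chosen with earlier results of these data known. Named genes are the paralog pairs, X-linked and stalk genes, the 10 with most UMIs, the 5 least like the median gene, and in each class every called gene plus the 5 top and 5 bottom ratios (ranked by the interval bound nearest 0, 50 or more UMIs). Alternatives were a stricter barcode filter (1000 UMIs, 500 genes, 10% mitochondrial), subtraction of free RNA (the lowest 10% of barcodes by UMIs), clustering with the ribosomal protein genes, equal weight of sub-clusters with at least 10 cells, TMM scaling (edgeR 4.0.16), scaling by the other genes, minimums of 100 or 1 UMIs, and medians over cells. Gene positions and transcripts are from GENCODE M21 (GRCm38). Values of some single genes are not reported here.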

Additional observations from a re-analysis of the deposited data

How the results depend on the processing

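No paired analysis was possible because each genotype has 1 library. Of 135 alternative values of the summed share, the median ratio and the number of called genes, 8, all of them counts, moved by over 1.5 times and 127 did not. TMM scaling changed the sign of 3 values that lay within 1.5-fold: in elongating spermatids the share ratio was -0.16 and the median -0.11, and in Sertoli cells the median was -0.02, against 0.04, 0.10 and 0.09. No other share ratio or median changed sign. In early spermatocytes 18 genes were called (1 higher and 17 lower) with ribosomal protein genes in the clustering and 7 with equal weight of sub-clusters, against 4. In elongating spermatids 4 were called with equal weight and 6 with TMM scaling, against 10. In Sertoli cells 4 were called with the stricter filter and 4 with free RNA subtracted, 1 with ribosomal protein genes in the clustering and 1 with TMM scaling, against 2. The cause was not tested. Of 403 alternative ratios of single genes, 27 lost and 9 gained a call, and of 322 paralog shares, 61 moved outside their counting interval. The log2 ratio of the summed share lay between -0.33 and 0.14 over its alternatives.

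Some calls of X-linked genes rest on few UMIs, such as 14 in WT early spermatocytes and 20 in WT elongating spermatids for Rps4x. Spermatogonia and early spermatocytes rest on 64 to 121 cells per library.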
